A study of Mus musculus with 6 samples.

Results

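The antigen presentation genes of podoplanin-positive cancer-associated fibroblasts (pCAFs) were compared between cells with and without the surface protein Ly6C. The set held every gene in the table whose symbol begins with H2- (19 genes) and 17 named genes of the same pathway, 36 of 12235 genes in all. The fibroblasts came from tumours that 4T1 mammary carcinoma cells formed in the mammary fat pad of BALB/c females, which were 8 weeks old. The labels give the injected line once with GFP and once with luciferase. Live cells lacking Ter119, CD45 and EpCAM and carrying PDPN were sorted into 3 Ly6C+ and 3 Ly6C− libraries, read from the 3′ ends of mRNA. The groups share strain, tumour and sort apart from the Ly6C gate, and no cells from tumour-free mice were compared. The labels do not say whether the 3 repetitions were separate mice or separate sorts, so the p-values measure the spread between these libraries, which may be technical.

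MHC class I molecules present peptides from inside the cell to CD8 T cells. Proteins are cut by the proteasome, in which interferon can exchange the standard catalytic subunits for those of the immunoproteasome. The peptides are carried into the endoplasmic reticulum by TAP and loaded onto a heavy chain paired with beta-2 microglobulin. MHC class II molecules pair an alpha and a beta chain, are held by the invariant chain (Cd74) until they meet endosomal peptides, and present these to CD4 T cells. Class II is a hallmark of professional antigen-presenting cells, and its expression is switched on through the coactivator CIITA. Fibroblasts with class II and Cd74 have been described in tumours as antigen-presenting CAFs.

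Values are normalised counts, that is reads of a gene divided by 1 size factor per library. The 6 libraries held 1176909 to 2818269 reads, the Ly6C− ones fewer than the Ly6C+ ones, and 1 read was worth 0.610 to 1.31. Ly6c1, the sorted marker, stood at 2316 to 3849 in Ly6C+ and 65.6 to 88.6 in Ly6C− libraries. Pdpn, the marker of the common gate, stood at 181 to 223 in Ly6C+ and 66.9 to 143 in Ly6C− libraries (limma adjusted p = 0.00915), and Pdgfra, a defining fibroblast gene, at 490.4 to 555 and 206 to 229 (0.000192). Of the 10 fibroblast markers 5 were higher (Pdpn, Pdgfra, Col3a1, Dcn and Lum) and 1 lower (Pdgfrb) in Ly6C+, so the gated populations also differed in markers of fibroblast identity. The part of that difference in the values below was not tested. Log2 fold changes are Ly6C+ minus Ly6C−, with a 95% confidence interval (CI), and were fitted with limma to log2(value + 1), a scale on which changes of low genes come out too small. A gene passed when its p-value, adjusted by Benjamini-Hochberg over all 9646 genes with a mean value of at least 5, was under 0.05.

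Of the 36 genes 30 had enough reads to be tested. H2-Ab1, the beta chain of the class II molecule I-A, was lower in Ly6C+ and passed, none passed as higher, and 29 did not pass. Over all tested genes 17.1% passed (9.41% higher and 7.66% lower), so 1 of 30 was not above the share in the whole table. At an unadjusted p under 0.05 there were 5 members, H2-Ab1, Tap1, Psmb8 and Psme2 with negative values and H2-Ke6 with a positive one, against 28.5% of all tested genes. The edgeR test called H2-Ab1 alone (17.8% of all tested genes called, 8.25% as lower), and DESeq2 called H2-Ab1, Tap1 and Psmb8 (16.1% called, 7.42% as lower). The median log2 fold change of the 30 genes was −0.11, with 14 above and 16 below 0. With libraries scaled to their total reads the median of all genes shifted by −0.19, the share of calls that were higher in Ly6C+ was 37.4% in place of 55.1%, and 5 members passed as lower (H2-Ab1, Tap1, Psmb8, Psmb10 and Psme2), where 20.1% of all tested genes passed and 12.6% as lower. A p that misses the threshold does not show equal expression, and fewer cells with a transcript and less transcript per cell cannot be told apart in these bulk libraries.

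**Figure D1:**
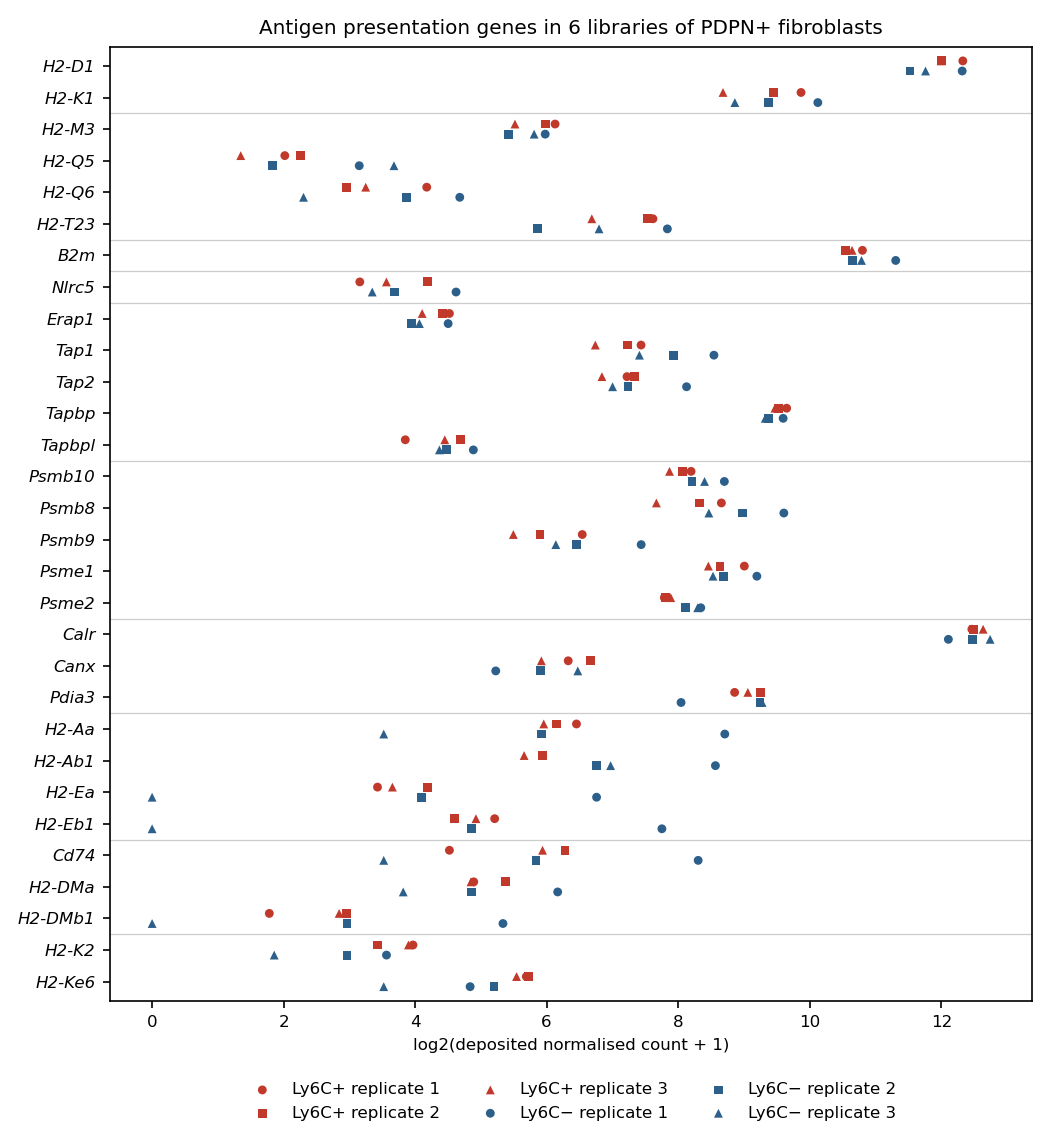
Log2(normalised count + 1) (horizontal axis) of the 30 tested antigen presentation genes (rows, by role), with a point for each of the 6 libraries. Ly6C+ points are red and Ly6C− points blue, with a marker shape for each replicate. Class II genes lie furthest right in Ly6C− replicate 1 and mostly furthest left in Ly6C− replicate 3. Class I genes and chaperones differ less between libraries.

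The spread among the Ly6C− libraries was wide. Ly6C− replicate 1 was the highest of the 6 libraries in 20 of the 30 members (66.7%), against 15.5% of all tested genes. Within the Ly6C− group it was the highest in 25 of 30 (83.3%, against 31.9%). The median SD of log2 values in the Ly6C− group was 0.65 for the members and 0.30 for all tested genes, whereas in the Ly6C+ group it was 0.30 and 0.28. Without Ly6C− replicate 1 the members that passed were H2-Ab1 (lower) and H2-Ke6 (higher).

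That spread was widest in the class II genes, but it was not confined to them. Of the 23 other tested members, Ly6C− replicate 1 was the highest of the 6 libraries in 13 and the highest Ly6C− library in 18. Their median SD of log2 values was 0.57 in the Ly6C− and 0.29 in the Ly6C+ group. The reads of the 10 genes counted as class II, its chaperones, the invariant chain and Ciita made up 14.3, 17.2 and 14.8 per 100000 reads in Ly6C+ replicates 1, 2 and 3. In the Ly6C− libraries they made up 107 in replicate 1 (Wilson 95% interval 102 to 112), 20.6 in replicate 2 (18.6 to 22.9) and 10.3 in replicate 3 (8.61 to 12.3). The intervals cover counting error only. Ly6C− replicate 1 thus lay above all the other libraries, and the other Ly6C− libraries lay on either side of the Ly6C+ values. The interval of Ly6C− replicate 2 overlapped that of Ly6C+ replicate 2 (15.6 to 19.0), and that of Ly6C− replicate 3 lay below every Ly6C+ interval. All 7 tested class II genes were highest in Ly6C− replicate 1. Their median SD of log2 values was 2.60 in the Ly6C− and 0.30 in the Ly6C+ group.

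H2-Ab1 (chromosome 17, 34257689 to 34269419, plus strand, protein coding, mm10) stood at 60.4, 60.1 and 49.5 in the Ly6C+ libraries and at 378, 107 and 125 in the Ly6C− libraries. The groups did not overlap, and each Ly6C− library was above every Ly6C+ one. The mean was 3.59-fold higher in Ly6C− pCAFs, at 203 ± 152 against 56.7 ± 6.24 (SD, n = 3 each), with a log2 fold change of −1.59 (CI −2.44 to −0.73, limma adjusted p = 0.0157). Without Ly6C− replicate 1 the ratio was 2.04 and the gene still passed (adjusted p = 0.00786). The call ended without Ly6C+ replicate 1 (adjusted p = 0.0574), without Ly6C+ replicate 3 (0.0587), with no filter on low values (0.0764) and with no mean-variance trend (0.0597).

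H2-Aa, the alpha chain that pairs with H2-Ab1 (chromosome 17, 34282744 to 34287823, minus strand, a protein-coding gene on mm10), stood at 86.6, 69.9 and 61.0 in Ly6C+ and at 417, 59.5 and 10.5 in Ly6C− libraries. The Ly6C− values lay above, just below and far below the Ly6C+ values. Its log2 fold change was 0.14 (CI −1.92 to 2.19, limma adjusted p = 0.951), while the mean was higher in Ly6C−, at 162 ± 222 against 72.5 ± 13.0. Its log2 spread within the Ly6C− group was larger than that of 99.9% of tested genes. The log2 fold change was 1.46 (CI 0.36 to 2.57) without Ly6C− replicate 1 and −1.13 without Ly6C− replicate 3, so the libraries at either end set its sign, and neither value passed.

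The pair of chains did not keep 1 ratio. H2-Ab1 was 0.697 to 0.860 times H2-Aa in the Ly6C+ libraries and 0.906 times in Ly6C− replicate 1. In Ly6C− replicates 2 and 3 it was 1.80 and 11.9 times H2-Aa, the last on 95 reads of H2-Ab1 and 8 of H2-Aa. In those libraries H2-Ab1 was above the Ly6C+ values and H2-Aa was not. The last 500 bases of H2-Ab1 and of H2-Aa transcripts shared no 50-base window with another gene of the region, and no exon of H2-Ab1 overlapped another gene. That check used C57BL/6 sequence, while BALB/c mice carry another H2 haplotype, and the part of allelic mismatch in these counts was not tested.

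The I-E chains followed H2-Aa rather than H2-Ab1. H2-Eb1, the I-E beta chain, stood at 35.99, 23.3 and 29.4 in Ly6C+ and at 215, 28.1 and 0 in Ly6C− libraries (log2 fold change 0.71, CI −2.37 to 3.79, limma adjusted p = 0.799). H2-Ea, the I-E alpha chain, stood at 9.76, 17.3 and 11.6 against 107, 16.2 and 0. Both were high in Ly6C− replicate 1, within the Ly6C+ range in replicate 2, and without a read in replicate 3, where the limit that a count of 0 allows is a value of 3.93. BALB/c mice make I-E, whereas C57BL/6 mice, the source of the reference, do not transcribe H2-Ea.

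Within the Ly6C− group the class II partners had the same order of libraries. Cd74, the invariant chain, stood at 21.96, 76.7 and 60.3 in Ly6C+ and at 315, 56.1 and 10.5 in Ly6C− libraries (log2 fold change −0.31, CI −2.33 to 1.72, limma adjusted p = 0.873). H2-DMa, part of the H2-DM complex that exchanges peptides on class II, stood at 27.8 to 40.6 in Ly6C+ and 70.9, 28.1 and 13.1 in Ly6C− libraries. Its partner H2-DMb1 stood at 2.44 to 6.77 and at 39.4, 6.81 and 0, uncertain because 20.4% of its 3′ windows also occur in other genes of the region. In the Ly6C+ group all 3 were highest in replicate 2, whereas H2-Aa and H2-Eb1 were highest in replicate 1. For each of these 3 genes the Ly6C− libraries spanned the whole range of the Ly6C+ libraries, and none passed. Ciita had 1 read, in Ly6C+ replicate 2, H2-DMb2 had 3 reads, all in Ly6C− replicate 1, and H2-Oa had none in any library. At this depth no difference in the level of Ciita was detectable.

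The sequences before the start sites of H2-Aa and H2-Eb1, whose values went together over the libraries, are shown because both hold the Y box of class II promoters. They come from RefSeq on GRCm38.p6 and are the 250 bases before the start, written 5′ to 3′ on the gene's strand, with the Y box (CTGATTGG on either strand) in capitals. No other motif is in capitals in this pair.
H2-Aa, chr17:34287824-34288073, minus strand: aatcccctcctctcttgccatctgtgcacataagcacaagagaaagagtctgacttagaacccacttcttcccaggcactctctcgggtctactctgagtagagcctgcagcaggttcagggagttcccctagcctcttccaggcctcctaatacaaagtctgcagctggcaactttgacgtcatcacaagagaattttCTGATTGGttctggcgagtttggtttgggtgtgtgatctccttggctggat
H2-Eb1, chr17:34305617-34305866, plus strand: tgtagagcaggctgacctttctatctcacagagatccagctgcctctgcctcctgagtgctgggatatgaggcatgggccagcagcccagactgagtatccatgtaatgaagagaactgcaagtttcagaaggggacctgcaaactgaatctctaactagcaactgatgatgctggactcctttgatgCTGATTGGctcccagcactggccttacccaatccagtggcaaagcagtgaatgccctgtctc
The Y box lay 51 bases before the end of the H2-Aa window and 62 before that of H2-Eb1. It was found in 9 of the 26 members with a promoter in the table (H2-Aa, H2-Eb1, H2-Oa, H2-D1, H2-Q6, H2-T23, Tap1, Psmb9 and Canx) and in 3.83% of all 32851 promoters. H2-Ab1 had no entry.

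Markers of other cells were read beside the class II genes. Ptprc, which encodes CD45, had 0 reads in all 3 Ly6C− libraries and stood at 4.88, 1.503 and 1.55 in the Ly6C+ libraries. Of the 20 myeloid and dendritic markers 15 were in the table, and their summed level was 171 to 428 in Ly6C+ and 230.3, 74.0 and 74.7 in Ly6C− libraries. Within the Ly6C− group, 9 of the 10 tested markers of that list were highest in replicate 1, among them C1qa (32.5, 2.55 and 2.62), a complement gene of macrophages. The sums of the groups overlapped. Lyz2, a lysozyme of myeloid cells, passed as higher in Ly6C+ and was a large part of the Ly6C+ sums. It stood at 264, 98.5 and 27.0 in Ly6C+ replicates 1, 2 and 3, within sums of 428, 298 and 171. In the Ly6C− libraries it stood at 25.6, 1.70 and 3.93. Of the B and T cell markers 2 of 9 were in the table, summing to 89.5 to 165 in Ly6C+ and 15.7 to 28.5 in Ly6C− libraries. Nearly all of that sum was Cd3e, a chain of the T cell receptor complex, at 88.7 to 165 in Ly6C+ and 10.5 to 19.7 in Ly6C− libraries, which passed as higher in Ly6C+ (limma adjusted p = 6.45e-05). Cd79b, a B cell receptor chain, stood at 8.86, 1.70 and 5.24 in Ly6C− libraries and at 0 to 0.773 in Ly6C+ libraries, too low to be tested.

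Some epithelial and mesothelial markers differed between the groups, and some varied among the Ly6C− libraries. The 9 epithelial markers summed to 12.8 to 47.9 in Ly6C+ and to 360.2, 216 and 119 in Ly6C− libraries. Most of these sums came from the keratins. Epcam itself was at 0 to 2.95 over all 6, and Cdh1, Cldn4 and Cldn7 at 0 to 3.86. Krt14 and Krt19 passed as lower in Ly6C+ by all 3 tests (limma adjusted p = 4.16e-05 and 0.000174), and Krt8 and Krt18 by edgeR alone. In the Ly6C− libraries Krt14 stood at 25.6, 40.8 and 26.2 and Krt19 at 57.1, 24.7 and 53.8, unlike the order of the sum. Msln, a mesothelial marker that also marks antigen-presenting CAFs in some tumours, stood at 1.83, 4.51 and 3.09 in Ly6C+ and at 94.5, 26.4 and 2.62 in Ly6C− libraries (limma adjusted p = 0.106), and edgeR and DESeq2 called it lower in Ly6C+. Its order over the Ly6C− libraries was that of H2-Aa, as in Wt1, Slpi, Krt8 and Krt18 but not in Saa3, Krt14 or Krt19. The table held 5 mesothelial markers, and the calls among the 4 tested went in both directions. Slpi, a protease inhibitor, passed as lower in Ly6C+ by all 3 tests (177 to 262 against 298.9 to 940, limma adjusted p = 0.0246). Saa3, an acute-phase protein, passed as higher by limma alone (7853 to 12019 against 2536 to 8504, adjusted p = 0.0447), and Wt1 did not pass. Of the endothelial markers 6 of 8 were in the table, with sums of 108 to 143 in Ly6C+ and 38.0 to 148 in Ly6C− libraries. All 4 tested ones passed by limma, Tek and Plvap as higher and Kdr and Egfl7 as lower in Ly6C+. The part of myeloid, B, T, epithelial, mesothelial or endothelial cells in the class II values was not tested.

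**Figure D2:**
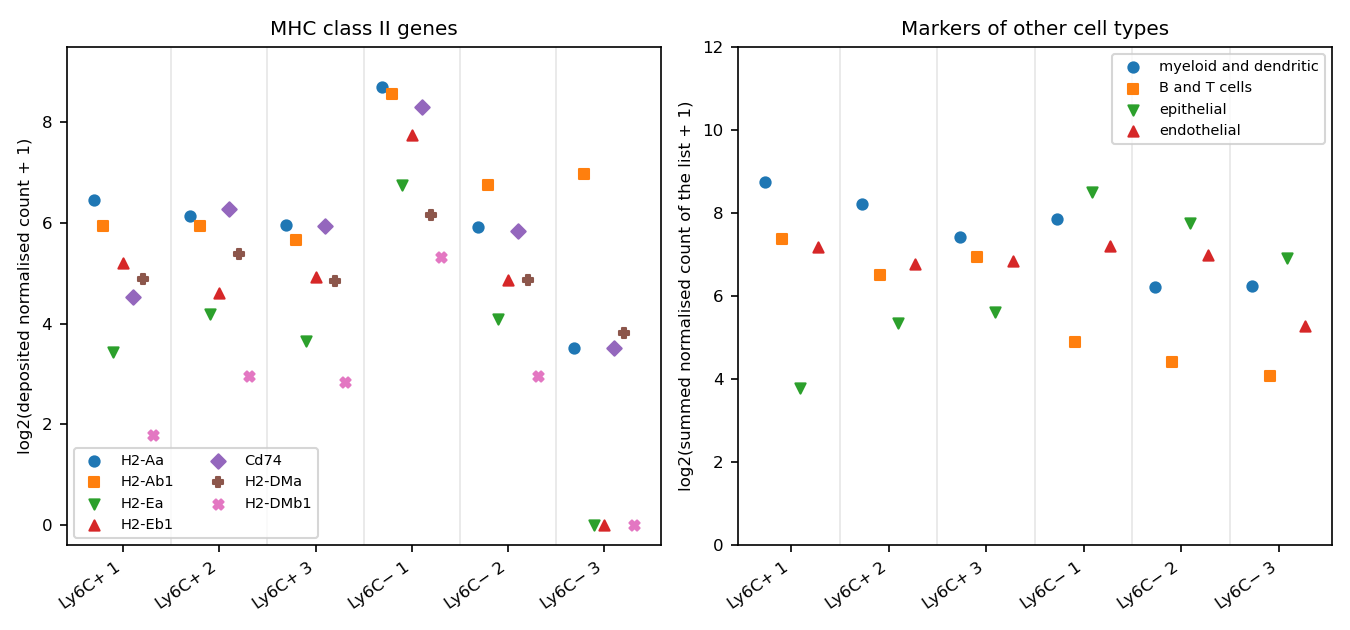
Left, log2(normalised count + 1) of class II genes in each library. Right, summed normalised counts of marker lists of other cell types in the same libraries. Class II genes peak in Ly6C− replicate 1, and H2-Ab1 alone stays above the Ly6C+ values in Ly6C− replicate 3. The epithelial sum, mostly keratins, is 360.2, 216 and 119 in Ly6C− replicates 1, 2 and 3.

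The class I heavy chains and their light chain did not pass. H2-D1, a classical heavy chain (chromosome 17, 35262730 to 35267499, plus strand, protein coding, mm10), stood at 5139.9, 4115 and 4089 in Ly6C+ and at 5106, 2945 and 3469 in Ly6C− libraries. Its log2 fold change was 0.24 (CI −0.24 to 0.73, limma adjusted p = 0.528), with means of 4448 ± 599 and 3840.0 ± 1127. H2-K1, the other classical heavy chain in the table (chromosome 17, 33996017 to 34000347, minus strand, a protein-coding gene on mm10), stood at 933, 696 and 409.5 against 1114, 664 and 464 (log2 fold change −0.12, CI −0.87 to 0.62, adjusted p = 0.863). In both genes the groups overlapped, and their intervals reached no further than 0.73 and −0.87 on the log2 scale.

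B2m, the light chain of every class I molecule (chromosome 2, 122147686 to 122153083, plus strand, protein coding, mm10), stood at 1783, 1492 and 1599 in Ly6C+ and at 2533, 1611 and 1766 in Ly6C− libraries. Ly6C− replicate 1 was the highest and the others overlapped (log2 fold change −0.25, CI −0.68 to 0.17, limma adjusted p = 0.444). Nlrc5, the coactivator of class I genes, stood at 7.93, 17.3 and 10.8 against 23.6, 11.9 and 9.18 (log2 fold change −0.25, CI −1.17 to 0.67, adjusted p = 0.761). Its low counts, with overlapping groups, left a wide interval.

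Of the 7 nonclassical class I genes 4 were tested and none passed by limma, edgeR or DESeq2, nor at an unadjusted p under 0.05. H2-T23, which encodes Qa-1, a ligand of NK cell receptors, stood at 195, 183 and 102 in Ly6C+ and at 227, 57.0 and 110.1 in Ly6C− libraries. H2-M3, which presents formylated peptides, stood at 44.8 to 68.9 against 41.7 to 62.0. H2-Q5, annotated as a polymorphic pseudogene, and H2-Q6 stood at 1.55 to 24.6 over the libraries. The untested H2-Q4, H2-T22 and H2-T24 stood at 0 to 5.24. The H2-Q genes are uncertain, since 31.3% of the 451 windows of 50 bases at the 3′ end of H2-Q5, 21.3% at that of H2-Q4 and 13.5% at that of H2-Q6 also occur in other genes of the region. For H2-K1 and H2-D1 that share was 0.444%. BALB/c mice also carry H2-L, which the C57BL/6 reference lacks, and its part in the H2-D1 counts was not tested.

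None of the 5 genes of peptide transport and editing passed by limma or edgeR, and Tap1 came nearest. Tap1, a subunit of the peptide transporter (chromosome 17, 34187553 to 34197225, plus strand, protein coding, mm10), stood at 172, 149.6 and 106 in Ly6C+ and at 372, 243 and 169 in Ly6C− libraries. Only Ly6C− replicate 3 overlapped the Ly6C+ range. The ratio of means was 1.84, and the log2 fold change was −0.83 (CI −1.44 to −0.21, limma adjusted p = 0.0702, unadjusted p = 0.0135). DESeq2 called it (adjusted p = 0.0203) and edgeR did not (0.0515).

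The other genes of that step gave smaller differences. Tap2, the partner subunit, stood at 114 to 160.1 in Ly6C+ and at 279, 149.7 and 127 in Ly6C− libraries, high in replicate 1 alone. Tapbp, or tapasin, which holds the heavy chain at the transporter, stood at 709 to 802 against 639.8 to 773. Its relative Tapbpl stood at 13.4 to 28.5 over the libraries, and the trimming peptidase Erap1 at 14.5 to 21.96. None of these 4 passed by any of the 3 tests.

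All 5 immunoproteasome and activator genes had negative log2 fold changes, with a median of −0.42 against −0.0007 over all tested genes. The sign was not particular to them. In a list of 17 other proteasome genes 14 also had negative values, with a median of −0.29. Besides the standard catalytic subunits that list holds shared subunits, Pomp, Psme3 and Psme4. The standard catalytic subunits Psmb5, Psmb6 and Psmb7 had log2 fold changes of −0.33, −0.29 and −0.35. Each of the 5 was highest in Ly6C− replicate 1. None of the 5 passed by limma or edgeR, Psmb8 and Psme2 reached an unadjusted p under 0.05, and DESeq2 called Psmb8. Psmb8, a catalytic subunit (chromosome 17, 34197721 to 34201454, plus strand, protein coding, mm10), stood at 403, 320.2 and 202 in Ly6C+ and at 778, 503 and 353 in Ly6C− libraries. Ly6C− replicate 3 fell inside the Ly6C+ range (log2 fold change −0.80, CI −1.47 to −0.13, limma adjusted p = 0.104, DESeq2 adjusted p = 0.0387).

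Psmb9, another catalytic subunit (chromosome 17, 34181987 to 34187764, minus strand, a protein-coding gene on mm10), stood at 92.1, 58.6 and 44.0 against 172, 86.8 and 69.5 (log2 fold change −0.70, CI −1.47 to 0.07, limma adjusted p = 0.217). Psmb10, the third catalytic subunit, stood at 233 to 292 in Ly6C+ and 295 to 415 in Ly6C− libraries, and Psme2, a subunit of the PA28 activator, at 220.2 to 236 and 276 to 324. In both the groups did not overlap, by 4 members in all with H2-Ab1 and H2-Ke6 (13.3% of 30, against 33.1% of all tested genes). Psme1, the other PA28 subunit, stood at 351 to 513 and 368 to 586. The groups overlapped there.

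Psmb9 and Tap1 are neighbours read in opposite directions from start sites 226 bases apart in RefSeq (34187330 and 34187556), and their annotated 5′ exons overlap. Exons of further members also overlap genes on the other strand, among them H2-DMa (Brd2), Psmb8 (Gm20496), Tap2, Nlrc5, Erap1, Psme1 and Pdia3. With the use of strand not given such reads cannot be told apart. Exons of Tapbp and Cd74 overlap a gene on the same strand (Zbtb22 and Mir5107). Over the 6 libraries Psmb9 stood at 0.357 to 0.536 times Tap1, and the groups overlapped in that ratio. The 250 bases before the start of Tap1 span the gap between the pair and hold the Y box on the opposite strand, in capitals. The same window of H2-D1, the class I gene with the highest counts, is shown beside it with its Y box and its enhancer A kappaB site GGGATTCCC, both in capitals.
Tap1, chr17:34187306-34187555, plus strand: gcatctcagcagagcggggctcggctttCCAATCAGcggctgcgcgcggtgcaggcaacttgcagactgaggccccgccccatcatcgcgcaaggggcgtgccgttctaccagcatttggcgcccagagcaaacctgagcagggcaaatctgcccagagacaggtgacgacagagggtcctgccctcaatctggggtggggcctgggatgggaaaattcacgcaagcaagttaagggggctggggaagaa
H2-D1, chr17:35262844-35263093, plus strand: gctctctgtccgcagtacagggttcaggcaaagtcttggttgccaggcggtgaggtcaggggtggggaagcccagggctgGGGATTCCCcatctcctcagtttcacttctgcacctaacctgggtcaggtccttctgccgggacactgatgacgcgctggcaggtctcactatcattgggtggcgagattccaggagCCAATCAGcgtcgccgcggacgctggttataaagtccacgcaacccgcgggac
The kappaB letters occurred in 3 of the 26 members (H2-D1, H2-K1 and H2-Q6) and in 0.301% of all promoters. The interferon-stimulated response element GAAANNGAA occurred in 4 members (B2m, Erap1, H2-T22 and H2-T23) and in 7.13% of all promoters. Both strands were searched, and a match is a description of letters, not of binding. The H2-D1 window lies before its RefSeq start but after its start in GENCODE (35262730). Those bases thus fall inside the gene as GENCODE gives it.

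The chaperones of class I folding had the opposite order of Ly6C− libraries. Calr, or calreticulin, stood at 5654, 5778 and 6368 in Ly6C+ and at 4414, 5688 and 6853 in Ly6C− libraries. Pdia3, the oxidoreductase ERp57, stood at 463 to 611 against 263, 605 and 619, and Canx, or calnexin, at 59.5 to 101 against 36.4, 58.7 and 87.8. In all 3 Ly6C− replicate 1 was lowest and replicate 3 highest. Replicate 3 was also the highest Ly6C− library in 4082 of all 9646 tested genes. None of the 3 chaperones passed by limma, edgeR or DESeq2, nor at an unadjusted p under 0.05.

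A pair of H2- symbols names genes that present no antigen. H2-Ke6 encodes a hydroxysteroid dehydrogenase and stood at 45.6 to 51.9 in Ly6C+ and 10.5 to 35.7 in Ly6C− libraries, without overlap (log2 fold change 1.13, limma adjusted p = 0.0651). All of its 3′ windows also occur in an annotated read-through transcript of the region, so its reads are uncertain. H2-K2, a transcribed pseudogene, stood at 9.77 to 14.6 and 2.62 to 10.8 (adjusted p = 0.203).

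**Figure D3:**
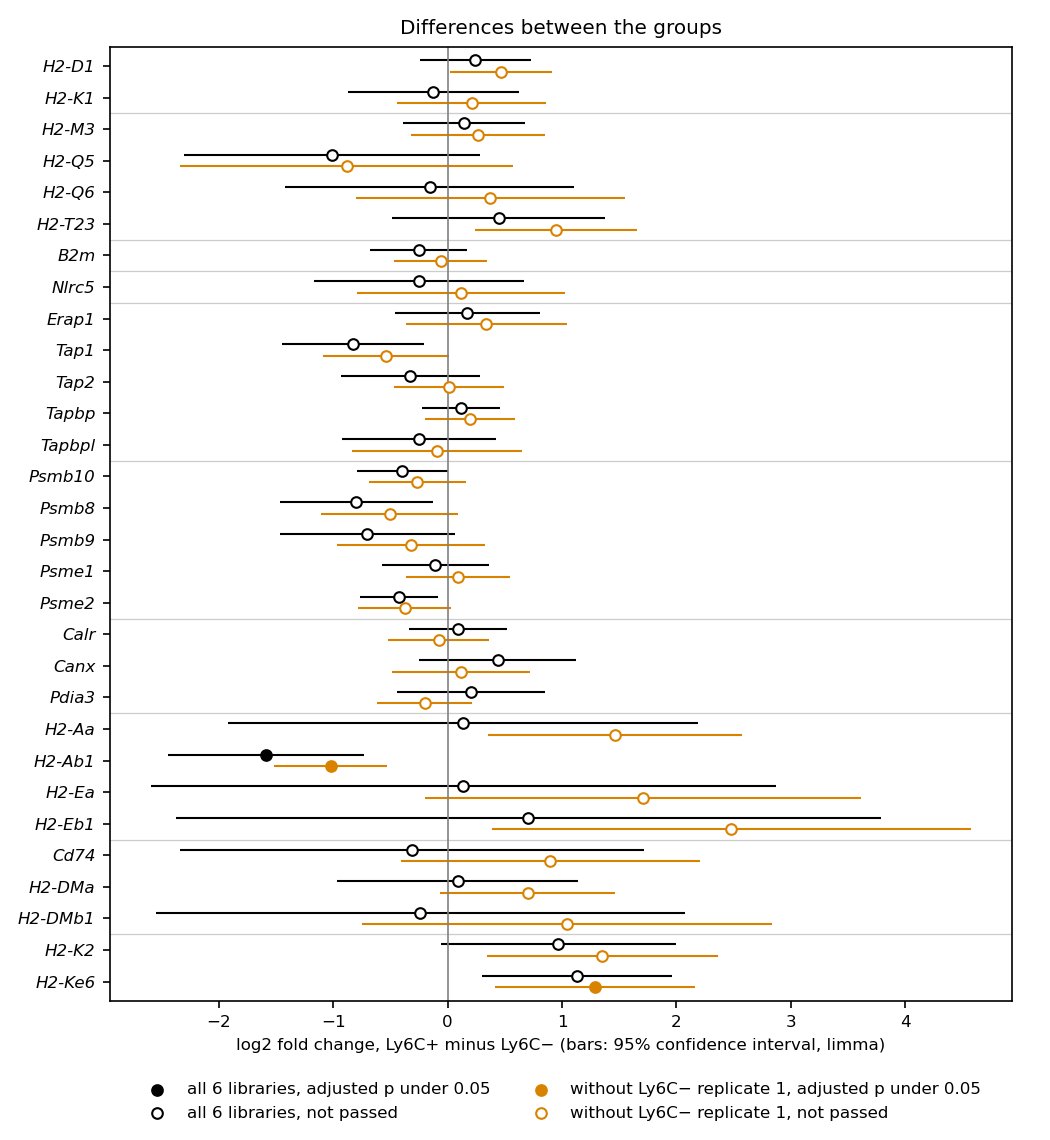
Log2 fold change (Ly6C+ minus Ly6C−) of the 30 tested genes with 95% confidence intervals, with all 6 libraries and without Ly6C− replicate 1. Filled points passed the test. H2-Ab1 is filled in both, H2-Ke6 without that library, and the intervals of H2-Aa, H2-Ea, H2-Eb1, Cd74 and H2-DMb1 are the widest.

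Genes around the pathway, which are not members, were taken from 6 lists with 69 symbols, of which 62 were in the table and 60 were tested. In these, 7 were higher and 3 lower in Ly6C+ by limma and 50 did not pass. The share was near the 17.1% of all tested genes. The 17 other proteasome genes had no call by limma, edgeR or DESeq2. They had 14 negative values, a median log2 fold change of −0.29 and 3 genes at an unadjusted p under 0.05.

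Of these 10 genes Cd40, from the co-signalling list, had the largest difference. Cd40, a receptor through which T cells activate antigen-presenting cells, stood at 2.44, 3.01 and 4.64 in Ly6C+ and at 29.5, 37.4 and 40.6 in Ly6C− libraries. The groups lay far apart, and Ly6C− replicate 1, the highest library for class II, was the lowest of its group for Cd40. The mean was 10.7-fold higher in Ly6C−, on 14 and 105 reads, with a log2 fold change of −3.10 (SE 0.34, limma adjusted p = 9.36e-05). Cd274, the checkpoint ligand PD-L1, stood at 7.93, 7.52 and 3.09 against 23.6, 15.3 and 17.04, 3.02-fold higher in Ly6C− on 27 and 55 reads (log2 fold change −1.51, SE 0.40, adjusted p = 0.0234). The call of Cd274 ended without Ly6C+ replicate 3 (0.0662), Ly6C− replicate 1 (0.0681) or Ly6C− replicate 2 (0.0556). It also ended with no filter on low values (0.0565).

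Genes that carry interferon signals to MHC genes, 14 of which were tested, included 3 that were higher in Ly6C+. Of all tested genes 9.41% were called higher. Ifngr1, the ligand-binding chain of the interferon-gamma receptor, stood at 118 to 133 in Ly6C+ and 69.9 to 86.8 in Ly6C− libraries (log2 fold change 0.62, SE 0.18, limma adjusted p = 0.0364). Jak1, the kinase at that receptor, was 1.86-fold higher in Ly6C+ (0.90, SE 0.24, adjusted p = 0.0252). Ptpn2, a phosphatase that acts on JAK kinases, stood at 78.7 to 112 against 36.7 to 59.1, 1.97-fold higher in Ly6C+ (0.98, SE 0.23, adjusted p = 0.0142).

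These 3 calls were near the threshold, and of the 18 alternatives Jak1 passed in 11, Ifngr1 in 10 and Ptpn2 in 16. Ifngr1 did not pass without any 1 of the libraries other than Ly6C− replicate 3 (adjusted p from 0.0818 to 0.113). Jak1 did not pass without replicate 1 (0.0620) or 3 (0.0939) of Ly6C+, nor without replicate 1 (0.0603) or 2 (0.116) of Ly6C−. Ptpn2 did not pass without Ly6C+ replicate 3 (0.0597) or Ly6C− replicate 2 (0.0570). Nfkb1, the NF-kB p50 precursor and the single call among 9 tested enhanceosome and NF-kB genes, stood at 204, 259 and 393 in Ly6C+ and 138 to 159.9 in Ly6C− libraries (log2 fold change 0.85, SE 0.23, adjusted p = 0.0252). Nfkb1 passed in 12 of the 18 alternatives. It did not pass without Ly6C+ replicate 2 (0.0614), Ly6C+ replicate 3 (0.0732) or Ly6C− replicate 2 (0.105). Nor did it pass with no filter on low values (0.0689), scaling to library totals (0.0732) or no mean-variance trend (0.0817).

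Of the 6 tested genes of class II processing (Ifi30, Ctss, Ctsb, Ctsd, Lgmn and Marchf8) 2 endosomal proteases, Ctsb and Lgmn, were higher in Ly6C+ pCAFs, where 9.41% of all tested genes were called higher. Ctsb, the cysteine protease cathepsin B, stood at 143, 130.0 and 134 in Ly6C+ and at 43.3, 64.7 and 83.9 in Ly6C− libraries, 2.12-fold higher, with a log2 fold change of 1.12 (SE 0.24, limma adjusted p = 0.00740). Lgmn, the asparaginyl endopeptidase legumain, stood at 548 to 746 against 339 to 389, 1.78-fold higher (0.82, SE 0.17, adjusted p = 0.00569). Neither pair of groups overlapped, and both genes passed under all 18 alternatives tried. Among 10 class I like genes and partners, Fcgrt, the class I like Fc receptor that binds B2m and recycles IgG, was the single call, at 476 to 605 in Ly6C+ and 309.6 to 333 in Ly6C− libraries (0.74, SE 0.16, adjusted p = 0.00753).

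**Figure D4:**
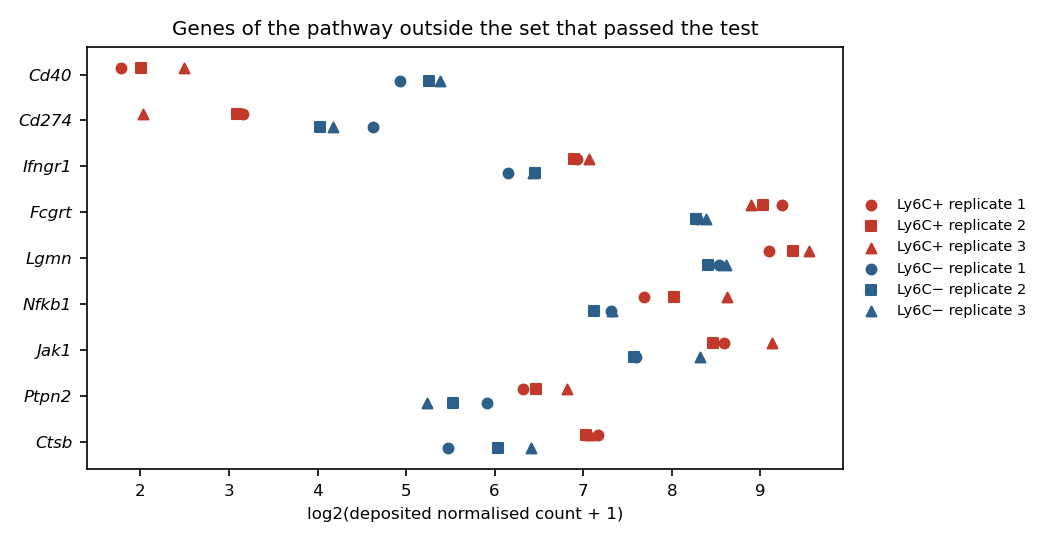
Log2(normalised count + 1) per library of 9 listed pathway genes that are not members and passed the test, Ly6C+ and Ly6C− libraries side by side. Cd40 and Cd274 are lower in Ly6C+, and the other 7 are higher.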

How the data were processed

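The authors deposited 1 table of signal values. These are normalised counts, the reads of each gene over a size factor of its library. The submitters' processing notes name bcl2fastq, STAR 2.4.2a and HTSeq, with the mouse build mm10. No source used here gives the annotation, the use of strand and of molecular tags, or the tool for the size factors. Each value was a whole multiple of 1 step per library (100% within 0.001), so whole reads were recovered for the count tests.

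Testing used limma (version 3.58.1, R version 4.3.3) with a mean-variance trend on log2(deposited signal + 1), 3 against 3 libraries, no block, and Benjamini-Hochberg adjustment over the 9646 genes with a mean of at least 5. Alternatives were other pseudocounts, filters and scalings, no trend, a block for the replicate number, leaving out single libraries, and edgeR 4.0.16 and DESeq2 1.42.0 on recovered reads. The steps were tested on simulated data. The members and lists were chosen with earlier results of these data known. The text names H2-K1, H2-D1, B2m, Tap1, Nlrc5, Cd74, Ciita, H2-Aa, H2-Ab1, H2-Eb1, Psmb8, Psmb9, every member past the test and up to 4 such genes per list, with other members by range. Values by library of further members, ratios between genes, and markers other than Ptprc, Ly6c1 and Pdpn were chosen after they were seen. Coordinates are from GENCODE M21 (35 of 36 members) and promoters from RefSeq (26 of 36). A result for 1 listed gene is not reported here. Tables used Python 3.11.15.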

Additional observations from a re-analysis of the deposited data

How the results depend on the processing

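The members called lower in Ly6C+ numbered 1 in the main test, 0 with no filter and with no mean-variance trend, 3 by DESeq2 and 5 with scaling to library totals, and 0 to 3 when single libraries were left out. The members called higher numbered 0 to 1 when single libraries were left out. For the listed genes that are not members, the 7 calls higher were 4 with scaling to totals and with no trend, and 3 to 8 with a library left out. The 3 calls lower were 1 with no filter and with a mean of at least 20, 8 with scaling to totals, and 1 to 2 with a library left out. All genes called lower, 739, were 1211 with scaling to totals and 469 to 741 with a library left out, the lowest without Ly6C− replicate 2. The cause was not tested.

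Replicates with the same number correlated at 0.129, 0.052 and 0.167 in their deviations from the group means, so the numbers were not taken to pair the libraries, although each library correlated best with its own number. With the replicate number as a block 1118 genes were higher and 970 lower, 1 member was higher (H2-Ke6) and 4 were lower (H2-Ab1, Psmb8, Psmb9 and Tap1), and 6 listed genes that are not members were lower; edgeR with the block gave the same 1, 4 and 6.

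H2-Ab1 kept its direction in all 18 alternatives, with log2 fold changes of −1.93 to −1.02 and adjusted p of 2.48e-05 to 0.0764. Signs turned only in members that had not passed. With scaling to totals the log2 fold change was −0.10 for Calr, −0.011 for Erap1, −0.057 for H2-Aa, −0.10 for H2-DMa, −0.034 for H2-Ea, −0.049 for H2-M3 and −0.078 for Tapbp. With quantile normalization it was −0.42 for Calr, −0.24 for H2-D1, −0.027 for H2-Ea and −0.017 for Tapbp, and with a pseudocount of 5 it was −0.37 for H2-Ea. By edgeR it was −1.20 for H2-Aa, −0.25 for H2-DMa, −1.73 for H2-Ea and −1.49 for H2-Eb1, and by DESeq2 −1.19, −0.24, −1.71 and −1.48. By edgeR with the block it was −0.41, −0.11, −1.20 and −0.80. With single libraries left out it ranged from −0.075 to 0.24 for Calr, −1.49 to 0.90 for Cd74, −1.13 to 1.46 for H2-Aa, −0.48 to 0.70 for H2-DMa, −1.62 to 1.05 for H2-DMb1, −1.67 to 1.71 for H2-Ea, −1.39 to 2.48 for H2-Eb1, −0.42 to 0.21 for H2-K1, −0.016 to 0.32 for H2-M3, −0.81 to 0.37 for H2-Q6, −0.039 to 0.95 for H2-T23, −0.53 to 0.12 for Nlrc5, −0.20 to 0.42 for Pdia3, −0.26 to 0.088 for Psme1 and −0.55 to 0.012 for Tap2. Depth limits the class II genes in Ly6C− replicate 3, where all 10 together had 121 reads.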
